A study of Mus musculus with 12 samples.

Results

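Spleen RNA from 6 mice was examined for 10 genes that mark or equip the red pulp macrophages of the spleen. The genes were taken by gene symbol, after Ensembl identifiers had been matched to mouse symbols, and all 10 are among the 32121 genes counted. They are Spic, Vcam1, Adgre1 and Mrc1, which are macrophage identity genes, Mertk, Axl and Timd4, which are receptors for dying cells, and C1qa, C1qb and C1qc, which encode the chains of complement C1q. The mice labelled VEC-Cre; SB Transposase; onc2, called SB animals 1 to 3, carry the Sleeping Beauty (SB) transposase, which mobilises the mutagenic transposon onc2, and VEC-Cre, a Cre recombinase of the kind driven by the vascular endothelial cadherin promoter. That promoter is active in endothelium and in the embryonic endothelium that gives rise to blood cells. The other 3 mice, WT animals 1 to 3, were given as wild type with no allele named. The strain label of every mouse was C57BL/6, and no age or treatment was given. Each spleen was sampled as 2 snap-frozen pieces, and the pieces of WT spleens were lettered, section A being piece 1 and section B piece 2. The stated purpose was to learn from the pieces how clonal a whole spleen was.

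Red pulp macrophages clear aged red blood cells from the circulation, break down their heme and return the iron to the blood. Their formation depends on the transcription factor Spic, which heme induces by removing the repressor Bach1, and which in turn is needed for the surface adhesion protein Vcam1. Efferocytosis is the uptake of dying cells: phosphatidylserine on the dying cell is bound directly by Timd4, or through the bridging proteins Gas6 and protein S by the receptor kinases Mertk and Axl, while C1q coats the cell and links it to phagocytes. In mice Adgre1 encodes F4/80, the standard macrophage surface marker, and Mrc1 encodes the mannose receptor CD206. Mrc1 is also made by sinusoidal and lymphatic endothelium.

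Libraries held 14320833 to 22031026 counts. All 10 genes passed the filter on low counts, and the lowest count of any of them in a library was 25, for Timd4 in piece 1 of SB animal 1. Spleen identity was checked with Tlx1, a transcription factor needed to form the spleen, which stood at 10.4, 18.4 and 9.79 CPM (counts scaled to a common library size) in SB animals 1 to 3 and at 25.7, 25.3 and 20.03 CPM in WT animals 1 to 3. The summed level of 6 B cell markers was 49.8 to 133 CPM in SB pieces and 6056 to 7980 CPM in WT pieces. Xist, which silences an X chromosome in females, had 2216, 994 and 1.66 CPM in SB animals 1 to 3 and no more than 2.46 CPM in any WT animal. Xist was thus high in SB animals 1 and 2 and low in all others. Every comparison of SB with WT spleens therefore also compares spleens that differ in Xist, and the part of sex was not tested. In RNA from whole tissue pieces, fewer cells of a type and less RNA per cell cannot be told apart.

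RefSeq promoter windows were available for 7 of the 10 genes, and 3 are shown as examples. All 10 genes differed between the SB spleens, so that does not set these 3 apart. C1qb was far above WT in SB animal 2, and Spic and Timd4 were below WT in SB animals 1 and 3. Each window covers the 250 bases before the RefSeq start on build GRCm38.p6 and is written along the gene's own strand. The Spic window lies inside the longer span that GENCODE gives the gene, but in none of its exons. Capitals mark matches, on either strand, to GAGGAA, the core of the site of Spic and its relative PU.1, and to TGCTGA, the core of the site of the Maf factors.

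C1qb, chr4:136886201-136886450, minus strand: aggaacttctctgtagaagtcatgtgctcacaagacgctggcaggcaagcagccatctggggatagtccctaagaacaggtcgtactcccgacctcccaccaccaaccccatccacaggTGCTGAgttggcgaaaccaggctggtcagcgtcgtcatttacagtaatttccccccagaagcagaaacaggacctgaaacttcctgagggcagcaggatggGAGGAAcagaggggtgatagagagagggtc
Spic, chr10:88683024-88683273, minus strand: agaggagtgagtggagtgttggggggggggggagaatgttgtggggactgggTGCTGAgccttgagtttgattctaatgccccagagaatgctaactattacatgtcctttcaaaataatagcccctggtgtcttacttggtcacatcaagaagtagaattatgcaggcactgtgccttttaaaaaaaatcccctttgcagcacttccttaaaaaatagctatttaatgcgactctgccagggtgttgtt
Timd4, chr11:46810549-46810798, plus strand: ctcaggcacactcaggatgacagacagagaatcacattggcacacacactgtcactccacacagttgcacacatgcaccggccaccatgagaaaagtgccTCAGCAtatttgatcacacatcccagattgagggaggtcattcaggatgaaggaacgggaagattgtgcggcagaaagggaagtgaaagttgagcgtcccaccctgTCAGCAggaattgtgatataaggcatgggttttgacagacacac

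GAGGAA was found in 4 of the 7 windows and TGCTGA in 3 of the 7. Over all 32851 RefSeq windows of the same length, 23.3% held GAGGAA and 16.1% held TGCTGA. C1qb had 1 match to each, Spic had 1 match to TGCTGA, and Timd4 had 2 matches to TGCTGA, both on the opposite strand. The 3 windows shown are thus the 3 with a match to TGCTGA. Of those not shown, the Mertk window had no match to either. Axl and C1qc had 1 match and Mrc1 had 3 matches to GAGGAA, with none to TGCTGA. The windows carry no measurement, and a match is a description of the letters only.

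Levels can be compared between genes per kilobase of exon (RPKM, from the CPM and the GENCODE exon length). In WT spleens the C1q chains led, with C1qa at 132 ± 4.57 RPKM, C1qb at 117 ± 10.7 RPKM and C1qc at 59.0 ± 4.51 RPKM (mean ± SD, n = 3 animals). Vcam1 followed at 37.6 ± 1.77 RPKM, then Axl at 32.3 ± 0.757, Timd4 at 27.3 ± 4.78, Spic at 25.0 ± 2.09, Adgre1 at 15.0 ± 0.714, Mrc1 at 11.51 ± 1.45 and Mertk at 8.66 ± 0.263 RPKM. Among neighbours in that order, the mean ± SD ranges overlapped for C1qa and C1qb, for Axl and Timd4, and for Timd4 and Spic, and they did not overlap for the other pairs. The SB spleens had other orders. In SB animal 1 Mrc1 led at 107 RPKM, ahead of C1qb at 64.9 and C1qa at 58.5 RPKM, and Timd4 was last at 0.702 RPKM. In SB animal 2 C1qa reached 2790 RPKM and C1qb 2720 RPKM, with C1qc at 1188, Mrc1 at 284 and Timd4 last at 27.7 RPKM. In SB animal 3 C1qb led at 119 RPKM, C1qa stood at 102 RPKM and Timd4 was again last at 2.59 RPKM.

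**Figure D1:**
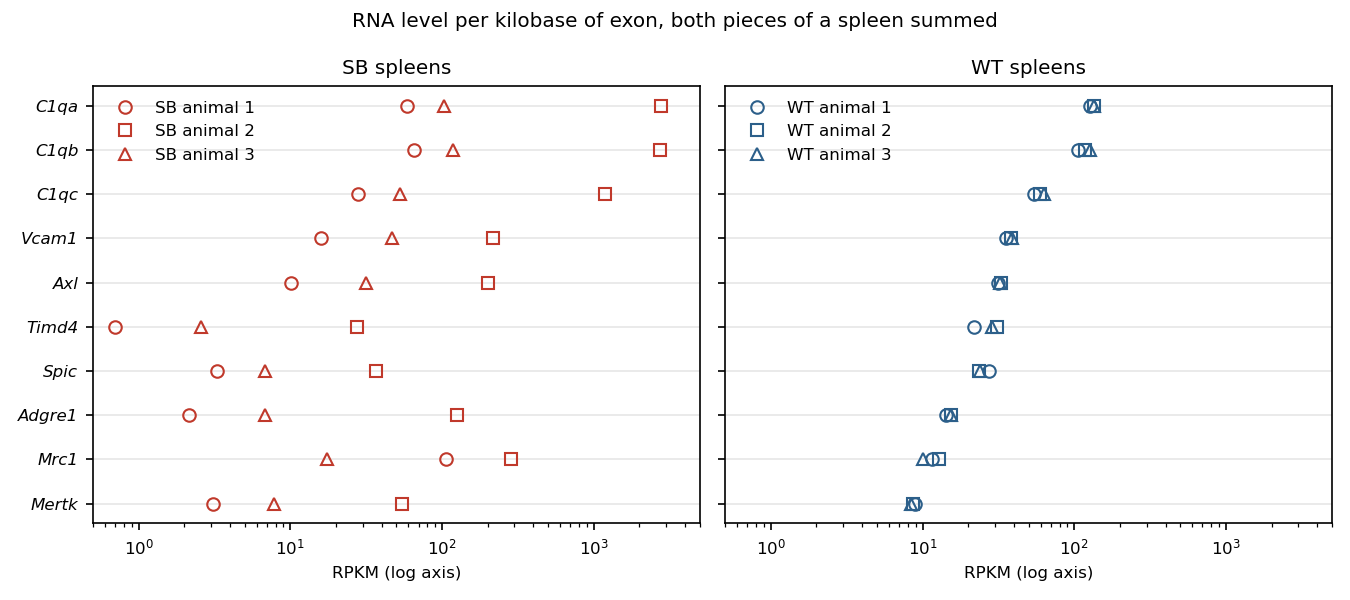
RNA level per kilobase of exon (RPKM, log axis) of the 10 genes, 1 symbol per animal, in SB spleens (left) and WT spleens (right), ordered by the WT mean. The 3 WT symbols lie almost on each other, while the SB symbols of a gene are spread, with C1qa between 58.5 and 2790 RPKM and Timd4 between 0.702 and 27.7 RPKM.

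Comparing SB with WT spleens asked what the 10 genes did with genotype when each spleen counted once. Mrc1 was the only one of the 10 that passed the test, with a higher level in SB spleens (log2 change 3.6, SE 0.944, adjusted p = 0.0489, edgeR quasi-likelihood test). The other 9 did not pass, at adjusted p between 0.177 and 0.612. Over all 17328 genes tested, 18.3% were called, 8.59% as higher and 9.75% as lower, so 1 of 10 is near the share among all genes. The median log2 change was 1.48 over the 10 genes and 0.11 over all genes tested. In no case did the 6 SB libraries lie wholly outside the range of the 6 WT libraries, against 29.6% of all genes. What set the SB spleens apart was their spread: SB animal 2 was the highest of the 3 SB animals for 10 of 10 genes, against 36.4% of all genes. It lay above every WT animal for 9 of 10 (42.4% of all genes), while SB animal 1 lay below every WT animal for 9 of 10 (47.7% of all genes) and SB animal 3 for 6 of 10 (46.4%). SB animal 1 lay above every WT animal for 1 gene, Mrc1 (42.4% of all genes), and SB animal 3 for 2, Vcam1 and Mrc1 (43.2%), and SB animal 2 lay below every WT animal for 0 (46.1%). Without SB animal 2 the log2 change had the opposite sign for Vcam1, Mertk, Axl, C1qa, C1qb, C1qc and Adgre1, none of which passed.

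**Figure D2:**
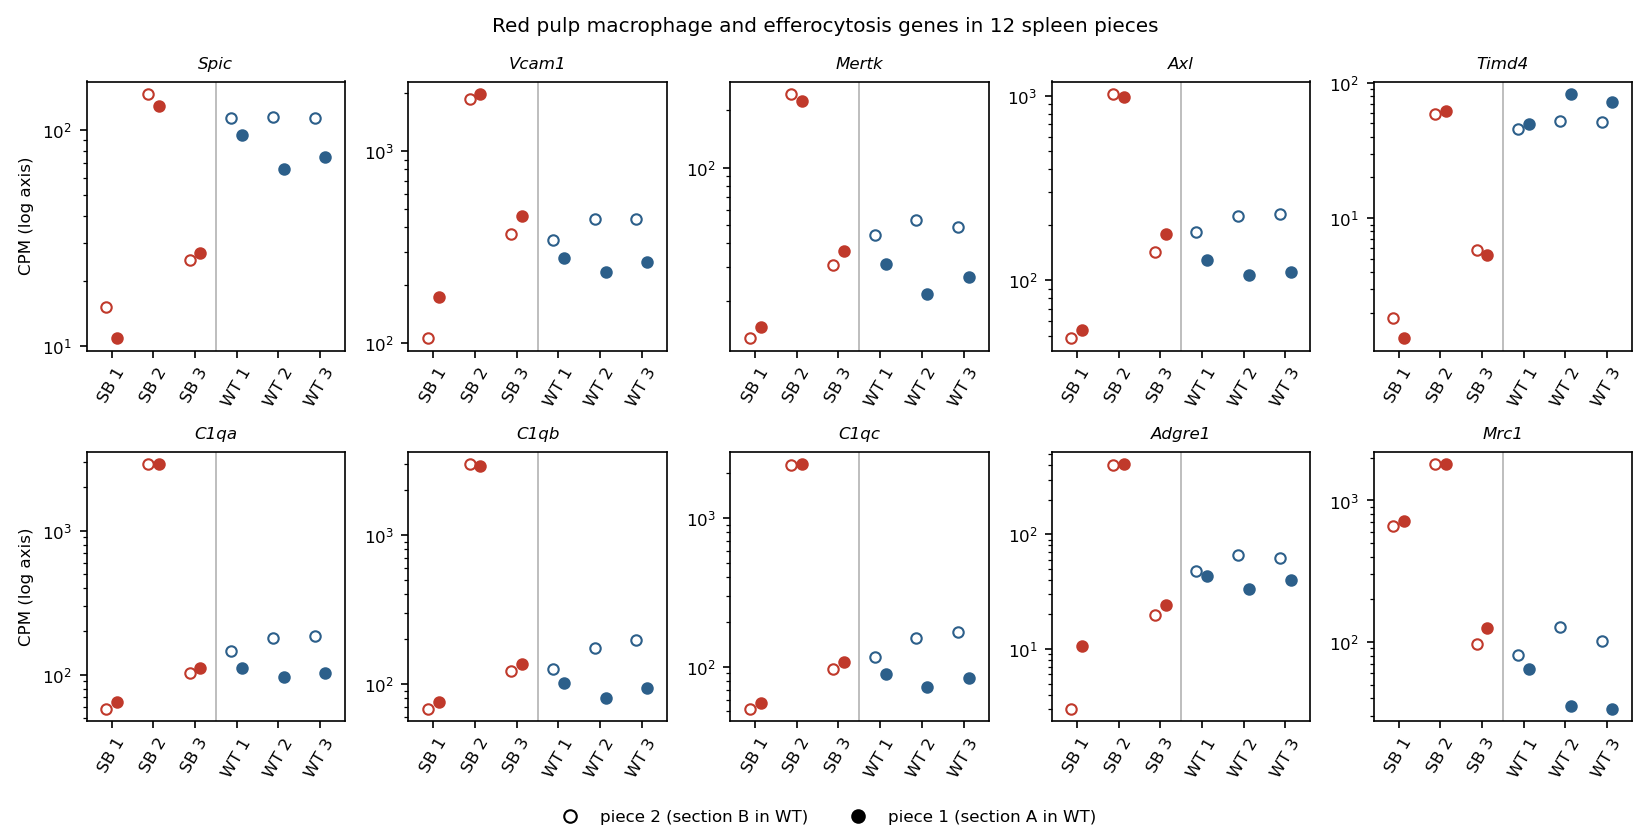
CPM on a log axis of each gene in the 12 spleen pieces, SB animals (red) to the left of WT animals (blue), with open circles for piece 2 (section B in WT) and filled circles for piece 1 (section A in WT). Each panel has its own axis. SB animal 2 stands at the top of the SB spleens in all 10 panels, and the 2 pieces of an SB spleen lie closer to each other than to the other SB spleens, except for Adgre1 in SB animal 1.

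Spic, the factor that red pulp macrophages depend on (ENSMUSG00000004359, chromosome 10, 88674772 to 88685015, minus strand, build GRCm38, as for all genes), had 15.1 and 10.9 CPM in pieces 2 and 1 of SB animal 1, 147 and 129 CPM in SB animal 2 and 25.0 and 27.0 CPM in SB animal 3. In WT spleens it had 113 and 94.3 CPM in sections B and A of animal 1, 115 and 66.0 CPM in animal 2 and 114 and 74.8 CPM in animal 3. All 4 pieces of SB animals 1 and 3 were thus under every WT piece, and both pieces of SB animal 2 were above every WT piece. Against the WT mean of 96.1 ± 8.01 CPM (SD, n = 3 animals), the SB animals stood at 0.131, 1.46 and 0.271 times that level. The SB mean was 59.7 ± 70.3 CPM, and the genotype test gave a log2 change of -0.66 (SE 0.839, adjusted p = 0.612). Without SB animal 2 the change was -2.29 and passed (adjusted p = 0.0101, with 0.0101 to 0.867 over all alternatives).

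Vcam1, an adhesion protein that binds the integrin VLA-4 and holds passing blood cells (ENSMUSG00000027962, chromosome 3, 116109949 to 116129688, minus strand), had 106 and 175 CPM in pieces 2 and 1 of SB animal 1, 1864 and 1977 CPM in SB animal 2 and 371 and 460 CPM in SB animal 3. It had 343 and 278 CPM in sections B and A of WT animal 1, 444 and 234 CPM in WT animal 2 and 443 and 265 CPM in WT animal 3. SB animal 1 was below, SB animal 2 far above and SB animal 3 within or just above the WT pieces. Relative to the WT mean of 333 ± 15.7 CPM, these animals were at 0.423, 5.77 and 1.25 times, and the genotype test gave 1.34 (log2, SE 0.874, adjusted p = 0.320). Vcam1 shares 61 exon bases with the antisense gene Gm43109 on the opposite strand, which had at most 0.204 CPM in any library. Spic and Vcam1 therefore did not keep their proportion: the ratio of Vcam1 CPM to Spic CPM was 11.2, 13.7 and 16.0 in SB animals 1 to 3 and 2.99, 3.75 and 3.73 in WT animals 1 to 3. These ratios did not overlap between genotypes.

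Adgre1, which encodes F4/80 (ENSMUSG00000004730, chromosome 17, 57358691 to 57483527, plus strand), had 3.01 and 10.6 CPM in pieces 2 and 1 of SB animal 1, which were 49 and 203 counts. It had 400 and 409 CPM in SB animal 2 and 19.8 and 24.3 CPM in SB animal 3. In WT spleens it had 47.5 and 43.4 CPM in sections B and A of animal 1, 66.1 and 33.5 CPM in animal 2 and 61.8 and 40.1 CPM in animal 3. As with Spic, the 4 pieces of SB animals 1 and 3 were below all 6 WT pieces and those of SB animal 2 above them. The animals stood at 0.144, 8.37 and 0.455 times the WT mean of 48.6 ± 2.31 CPM, and the genotype test gave 1.60 (log2, SE 1.35, adjusted p = 0.438).

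Mrc1, which encodes CD206 (ENSMUSG00000026712, chromosome 2, 14229392 to 14332057, plus strand), had 663 and 715 CPM in pieces 2 and 1 of SB animal 1, 1798 and 1803 CPM in SB animal 2 and 96.8 and 125 CPM in SB animal 3. It had 81.0 and 64.6 CPM in sections B and A of WT animal 1, 128 and 35.2 CPM in WT animal 2 and 102 and 33.7 CPM in WT animal 3. SB animals 1 and 2 were above every WT piece, and both pieces of SB animal 3 lay inside the WT range. Against the WT mean of 73.3 ± 9.21 CPM the SB animals stood at 9.26, 24.7 and 1.52 times. The call sat close to the threshold: it was lost when SB animal 1, SB animal 2 or any 1 WT animal was left out, and its adjusted p ran from 0.00033 to 0.180 over the alternatives. Mrc1 was the only gene of the 10 above every WT animal in SB animal 1, where the ratio of Mrc1 CPM to Adgre1 CPM was 97.2, against 4.46 and 5.04 in SB animals 2 and 3 and 1.29 to 1.64 in WT animals. The summed level of 7 endothelial markers was 675, 684 and 909 CPM in SB animals 1 to 3 and 546 to 591 CPM in WT animals. These markers did not move together: between genotypes Stab2 (1.09) and Eng (1.36) were called higher in SB and Pecam1 (-1.16) lower. They include Lyve1, which some macrophages also carry. Lyve1 differed by 7.05 on the log2 scale among SB animals and was highest in SB animal 2. The part of endothelial cells in the Mrc1 level was not tested.

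Mertk, the receptor kinase that macrophages use in resting tissue (ENSMUSG00000014361, chromosome 2, 128698956 to 128802894, plus strand), had 12.7 and 14.6 CPM in pieces 2 and 1 of SB animal 1, 244 and 224 CPM in SB animal 2 and 31.0 and 36.7 CPM in SB animal 3. WT sections B and A had 44.3 and 31.1 CPM in animal 1, 53.3 and 21.8 CPM in animal 2 and 48.6 and 26.7 CPM in animal 3. SB animal 1 lay below and SB animal 2 above all WT pieces, with SB animal 3 among them. Axl, its relative, which is more often linked to inflamed tissue (ENSMUSG00000002602, chromosome 7, 25757273 to 25788705, minus strand), followed the same pattern. It had 48.3 and 53.9 CPM in pieces 2 and 1 of SB animal 1, 1027 and 987 CPM in SB animal 2 and 141 and 178 CPM in SB animal 3. WT sections B and A had 182 and 128 CPM in animal 1, 224 and 107 CPM in animal 2 and 228 and 111 CPM in animal 3.

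Relative to the WT mean of 37.6 ± 1.14 CPM, Mertk stood at 0.360, 6.32 and 0.902 times in SB animals 1 to 3 (log2 change over all animals 1.36, SE 0.983, adjusted p = 0.366). Axl stood at 0.310, 6.26 and 0.983 times its WT mean of 163 ± 3.81 CPM (log2 change 1.36, SE 0.998, adjusted p = 0.375). The ratio of Axl CPM to Mertk CPM moved little, at 3.74, 4.29 and 4.72 in SB animals 1 to 3 and 4.12, 4.403 and 4.48 in WT animals 1 to 3, while SB animal 2 had 17.6-fold the Mertk level and 20.2-fold the Axl level of SB animal 1.

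Timd4, the phosphatidylserine receptor of resident macrophages (ENSMUSG00000055546, chromosome 11, 46810800 to 46844332, plus strand), had 1.84 and 1.31 CPM in pieces 2 and 1 of SB animal 1, 58.4 and 61.8 CPM in SB animal 2 and 5.87 and 5.39 CPM in SB animal 3. It had 45.8 and 49.6 CPM in sections B and A of WT animal 1, 52.2 and 82.8 CPM in WT animal 2 and 51.6 and 71.6 CPM in WT animal 3. Both pieces of SB animals 1 and 3 were far under the WT pieces, and SB animal 2 was within their range. The WT mean of 59.4 ± 10.4 CPM was 39.0-fold the level of SB animal 1 and 10.6-fold that of SB animal 3, while SB animal 2 stood at 1.01 times the WT mean. The genotype test gave -1.38 (log2, SE 1.20, adjusted p = 0.453). Without SB animal 2 it gave -4.02 and passed (adjusted p = 0.0117, with 0.0117 to 0.652 over the alternatives). Timd4 was thus the only gene of the 10 for which SB animal 2 did not lie above every WT animal.

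The genes C1qa (ENSMUSG00000036887), C1qb (ENSMUSG00000036905) and C1qc (ENSMUSG00000036896) lie side by side on the minus strand of chromosome 4, between positions 136880129 and 136898803 of build GRCm38. C1qa had 58.1 and 65.0 CPM in pieces 2 and 1 of SB animal 1, 2880 and 2887 CPM in SB animal 2 and 102 and 111 CPM in SB animal 3. It had 147 and 112 CPM in sections B and A of WT animal 1, 181 and 96.4 CPM in WT animal 2 and 186 and 104 CPM in WT animal 3. SB animal 2 stood apart from all other pieces, SB animal 1 was below every WT piece, and SB animal 3 was at the level of WT section A. C1qb and C1qc had the same order: C1qb had 67.8 to 75.3 CPM in SB animal 1, 2887 to 2978 CPM in SB animal 2 and 122 to 136 CPM in SB animal 3, against 80.5 to 196 CPM in WT pieces. C1qc had 52.0 to 56.6, 2268 to 2294 and 97.0 to 108 CPM in SB animals 1 to 3, against 72.5 to 170 CPM in WT pieces.

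Against the WT means of 137 ± 4.76, 127 ± 11.7 and 114 ± 8.70 CPM, SB animal 2 had 21.2-fold more C1qa, 23.3-fold more C1qb and 20.1-fold more C1qc RNA. SB animal 1 stood at 0.444, 0.556 and 0.470 times those means, and SB animal 3 at 0.778, 1.02 and 0.9002 times. The genotype test gave log2 changes of 2.93 for C1qa, 3.08 for C1qb and 2.87 for C1qc, with SE of 1.45, 1.41 and 1.40 and adjusted p of 0.204, 0.177 and 0.198. Together the C1q chains took 0.724% of all counts in piece 2 of SB animal 2 (95% Clopper-Pearson interval 0.720% to 0.727%, for counting error only) and 0.727% in piece 1 (0.723% to 0.731%). In every other SB piece they took 0.0188% to 0.0374%, and in WT pieces 0.0249% to 0.0566%. The balance between the chains shifted a little: the ratio of C1qa CPM to C1qb CPM was 0.815 to 1.00 in SB pieces and 0.951 to 1.20 in WT pieces, with overlap, and it was 0.815 to 0.864 in the 4 pieces of SB animals 1 and 3.

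**Figure D3:**
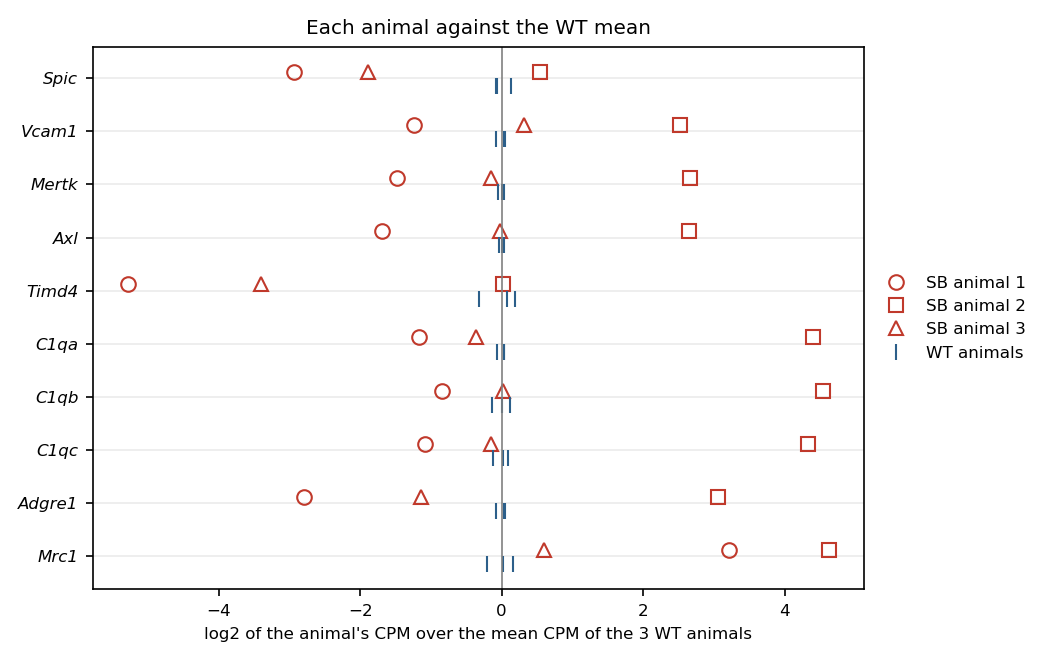
Log2 of each animal's CPM over the mean CPM of the 3 WT animals, with red symbols for SB animals 1 to 3 and blue ticks for the WT animals. The blue ticks lie close to 0, the squares of SB animal 2 lie to the right of them for every gene except Timd4, and the circles of SB animal 1 lie to the left for every gene except Mrc1.

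The SB spleens differed from each other for 10 of 10 genes, but so did 72.9% of all 15523 genes tested in the 12 libraries. In this edgeR test the error comes from the pieces of 1 spleen, so the p-values compare these 3 spleens and not a wider population. The distance between the highest and the lowest SB animal, on the log2 scale, was 3.42 for Spic, 3.78 for Vcam1, 4.05 for Mrc1, 4.11 for Mertk and 4.31 for Axl. It was 5.27 for Timd4, 5.37 to 5.56 for the C1q chains and 5.88 for Adgre1, against a median of 1.06 over all genes. The adjusted p ran from 1.37e-08 for Timd4 to 0.000571 for Mrc1. With SB animal 2 left out, SB animals 1 and 3 still differed for 7 genes, while C1qa, C1qb and C1qc no longer passed (adjusted p 0.075 to 0.107). The WT spleens, tested in the same way, differed for 0 of 10 genes (0.470% of all genes were called, and 1060 genes had an unadjusted p under 0.05), with distances of 0.50 or less.

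The genes fell into groups by how alike their patterns were over the 6 animals, measured as the root-mean-square difference of centred log2 CPM. The closest pairs were C1qa and C1qc at 0.10, C1qb and C1qc at 0.11 and Mertk and Axl at 0.11, and Vcam1 was nearest to Mertk at 0.21. Adgre1 was nearest to Axl at 0.59, and Spic to Mertk at 0.90. Timd4 was nearest to Spic at 0.91, and Mrc1 had no close neighbour, with C1qb nearest at 1.49 and Timd4 farthest at 3.16. Among 11131 other genes whose mean reached 5 CPM, the 5 most like Spic were Prdm1 at 0.09, Il6ra and Ckb at 0.10, Rnd3 at 0.13 and Tlr3 at 0.15. Il6ra, for example, which encodes the interleukin 6 receptor, had 11.7, 151 and 23.7 CPM in SB animals 1 to 3 and 98.8, 91.8 and 98.4 CPM in WT animals 1 to 3. Prdm1, a transcriptional repressor, had 2.44, 23.2 and 4.46 CPM in the SB animals and 20.3, 16.1 and 16.2 CPM in the WT animals. These are descriptions over 6 points that share libraries.

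The 2 pieces of each spleen were compared next, since the stated purpose rests on them. In WT spleens 9 of the 10 genes differed between the sections. Section B was higher than section A for Spic, Vcam1, Mertk, Axl, C1qa, C1qb, C1qc and Mrc1, and lower for Timd4, while Adgre1 did not pass, which made 8 of 10 higher and 1 of 10 lower (edgeR with the animal as a block). Over all genes 9.75% passed, 6.47% as higher and 3.29% as lower. The direction was the same in 3 of 3 WT animals for all 10 genes, against 56.1% of all genes, and 9 of 10 were higher in section B in each animal, against 27.9% of all genes. The median log2 difference was 0.772 over the 10 genes and 0.00351 over all genes.

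The largest of these section differences was that of Mrc1, with per-animal log2 ratios of B over A of 0.327, 1.86 and 1.60 in WT animals 1 to 3 (fitted difference 1.25, SE 0.253, adjusted p = 0.0225). Mertk had ratios of 0.513, 1.29 and 0.866 (0.88, SE 0.131, adjusted p = 0.00659), and Axl had 0.509, 1.07 and 1.04 (0.87, SE 0.113, adjusted p = 0.00575). Both kinases thus had close to the same section difference. The C1q chains followed with fitted differences of 0.72 for C1qa, 0.83 for C1qb and 0.83 for C1qc (SE 0.099, 0.137 and 0.123, adjusted p 0.00575 to 0.00977). Vcam1 differed by 0.66 (SE 0.132, adjusted p = 0.0164) and Spic by 0.55 (SE 0.113, adjusted p = 0.0163). Adgre1 did not pass (0.58, SE 0.245, adjusted p = 0.167), with ratios of 0.131, 0.980 and 0.624. Timd4 went the other way in each animal, with ratios of -0.114, -0.666 and -0.473 (fitted difference -0.42, SE 0.107, adjusted p = 0.035).

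WT animal 1 had the smallest difference for every one of the 10 genes. Without it 9 genes passed, and without WT animal 2 or WT animal 3 none passed at the threshold (lowest adjusted p 0.0863), with 0 genes called among all genes in either case. In a fit of the WT libraries alone 5 of the 10 passed, and Vcam1, C1qb, C1qc and Mrc1 did not (adjusted p 0.0849 to 0.218). Other RNA moved with the sections. The summed level of 8 erythroid markers was 29750 to 51140 CPM in section B and 14010 to 37160 CPM in section A, and 8 of 8 passed as higher in B. The summed B cell markers were 6056 to 6547 CPM in section B and 6883 to 7980 CPM in section A, and 1 of 6 passed, as lower. The marginal zone macrophage markers, which mark a different splenic macrophage population, summed to 159 to 167 CPM in section B and 165 to 196 CPM in section A, with 0 of 6 passing. The endothelial markers summed to 579 to 636 CPM in section B and 509 to 540 CPM in section A, and 4 of 7 passed as higher in B. The spleen stroma identity markers summed to 122 to 133 CPM in section B and 61.2 to 98.6 CPM in section A, with 4 of 6 higher in B. The pancreas markers summed to 18.4 to 26.1 CPM in section B and 9.26 to 18.9 CPM in section A. Only 1 of these 5, Cela1, passed the filter on low counts, and it was higher in B (0.68, adjusted p = 0.0466). Of the other marker lists, 2 of 4 eosinophil and 1 of 8 neutrophil and promyelocyte markers were higher in B, 1 of 6 dendritic cell and 1 of 6 stromal markers were higher and 1 of 6 of each were lower, and 0 of 6 monocyte and 0 of 6 T cell markers passed. These counts stand beside 6.47% of all genes higher and 3.29% lower in B. The position of the sections in the spleen was not given, and the part of tissue makeup in the section differences was not tested.

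In SB spleens 0 of 10 genes passed between piece 2 and piece 1, where 0.00644% of all genes did, which was 1 gene, and 3408 genes had an unadjusted p under 0.05. The direction was the same in 3 of 3 SB animals for 5 of 10 genes, against 42.0% of all genes. Vcam1 had the lowest unadjusted p of the 10, at 0.0216, with log2 ratios of piece 2 over piece 1 of -0.717, -0.085 and -0.309 in SB animals 1 to 3 (adjusted p = 0.162). In SB animal 2, where most of the genes were highest, every ratio lay between -0.085 and 0.187. The C1q chains were the most even, with ratios between -0.162 and 0.045 in the 3 animals. Adgre1 was the least even, at -1.82 in SB animal 1, against -0.033 and -0.297 in SB animals 2 and 3.

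The test of the difference itself, the piece difference in SB spleens minus that in WT spleens, passed for 5 of 10 genes, all lower in SB, where 1.37% of all genes passed, 0.264% as higher and 1.10% as lower. Vcam1 differed by -1.01 (log2, SE 0.186, adjusted p = 0.0416), Axl by -1.01 (SE 0.159, adjusted p = 0.0372) and Mertk by -0.96 (SE 0.184, adjusted p = 0.0426). C1qc differed by -0.92 (SE 0.172, adjusted p = 0.0416) and C1qa by -0.80 (SE 0.139, adjusted p = 0.0391). C1qb was just outside the threshold at -0.90 (adjusted p = 0.051), and Mrc1 at -1.40, Adgre1 at -1.01, Spic at -0.38 and Timd4 at 0.47 did not pass (adjusted p 0.0832 to 0.253). The letters A and B of the WT sections and the numbers 1 and 2 of the SB pieces need not mean the same place. The number passing was 7 without WT animal 1, 4 without SB animal 2, and 0 without any other single animal. Taken over all 6 animals, 0 of 10 genes passed between pieces by edgeR, where 3.05% of all genes did (1.29% as higher and 1.77% as lower), and DESeq2 called Spic (0.37, adjusted p = 0.0246). With edgeR the Spic difference was 0.38 (SE 0.103, adjusted p = 0.067).

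**Figure D4:**
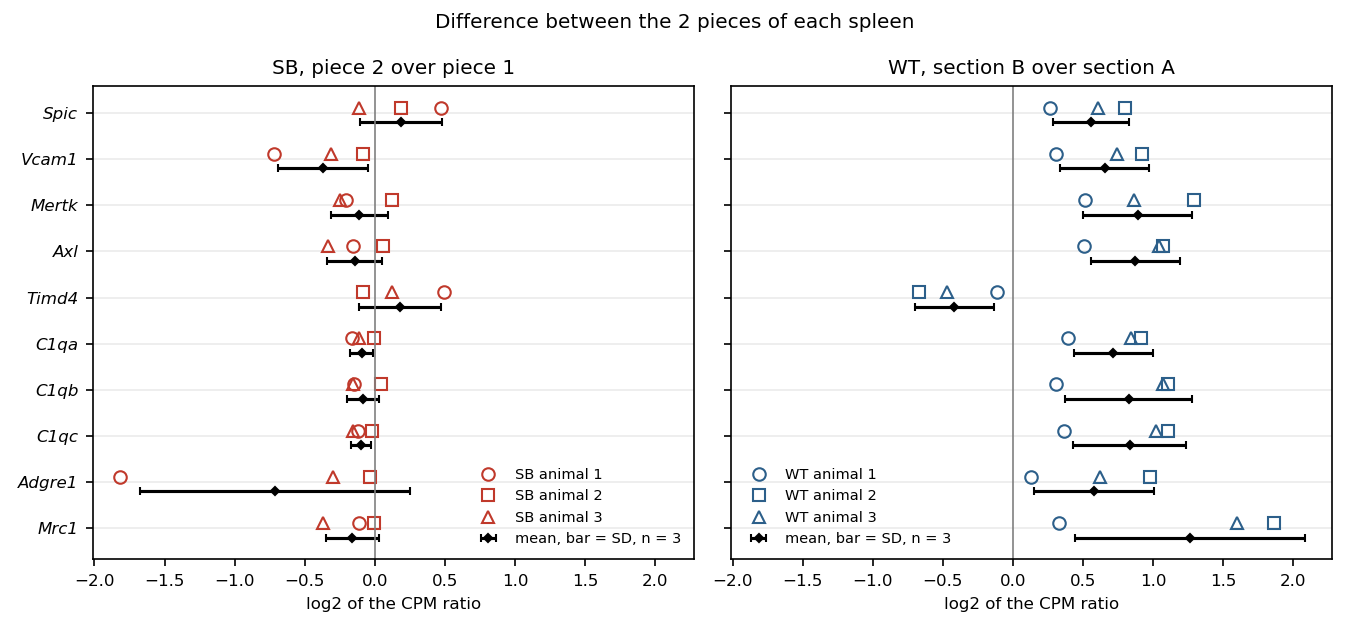
Log2 of the CPM ratio between the 2 pieces of each spleen, piece 2 over piece 1 in SB spleens (left) and section B over section A in WT spleens (right), 1 coloured symbol per animal, with black diamonds and bars for the mean and SD of 3 animals. In WT spleens all 3 symbols lie right of 0 for 9 genes and left of 0 for Timd4, while in SB spleens most symbols lie around or left of 0.

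Other genes of heme and iron recycling were examined beside the 10. Of 18 other red pulp macrophage genes, 0 passed between SB and WT spleens, where 18.3% of all genes did (median log2 change 1.22). Between WT sections 15 of 18 passed as higher in B, where 6.47% of all genes did (median 0.661), and between SB pieces 0 of 18 passed, where 0.00644% of all genes did. Hmox1, which breaks down heme, had 40.9, 1089 and 118 CPM in SB animals 1 to 3 and 347, 427 and 393 CPM in WT animals 1 to 3, and rose in section B by 0.89 (log2, SE 0.149, adjusted p = 0.0105). Slc40a1, which encodes the iron exporter ferroportin, had 51.2, 1339 and 302 CPM in the SB animals and 268, 263 and 242 CPM in the WT animals, with a section difference of 0.95 (SE 0.168, adjusted p = 0.0136). Its piece difference was lower in SB than in WT spleens by 1.22 on the log2 scale (-1.22, SE 0.237, adjusted p = 0.0477). Cd163, the scavenger receptor for haemoglobin, had 29.3, 261 and 67.0 CPM in the SB animals and 27.9, 32.6 and 17.2 CPM in the WT animals, with a section difference of 1.57 (SE 0.277, adjusted p = 0.0149). As a group these genes had median log2 levels over the WT mean of -1.66, 2.38 and -0.26 in SB animals 1 to 3, and the 10 genes had -1.36, 2.86 and -0.15.

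The summed CPM of the same 18 genes was 692, 10090 and 1709 in SB animals 1 to 3 and 1931 to 2044 in WT animals. Csf1r, the growth factor receptor on which macrophages depend for survival, had 51.6, 2008 and 97.9 CPM in SB animals 1 to 3 and 258, 279 and 295 CPM in WT animals 1 to 3 (log2 change 1.40, SE 1.30, adjusted p = 0.481). Ratios to Csf1r were taken for 5 of the 10 genes. The ratio of C1qa CPM to Csf1r CPM was 1.18, 1.45 and 1.09 in the SB animals and 0.509, 0.501 and 0.474 in the WT animals, and that of Mrc1 to Csf1r was 13.2, 0.902 and 1.14 against 0.286, 0.295 and 0.216. The ratio of Spic CPM to Csf1r CPM was 0.244, 0.06998 and 0.266 in the SB animals and 0.408, 0.326 and 0.312 in the WT animals. These 3 ratios did not overlap between SB and WT animals, the C1qa and Mrc1 ratios being higher and the Spic ratio lower in SB. The other ratios did overlap: Mertk to Csf1r was 0.262, 0.118 and 0.346 in the SB animals and 0.149, 0.136 and 0.123 in the WT animals, and Adgre1 to Csf1r was 0.135, 0.202 and 0.226 in the SB animals and 0.178, 0.180 and 0.168 in the WT animals. The ratio of C1qa CPM to Timd4 CPM was 39.9, 48.2 and 19.0 in the SB animals and 2.76, 2.06 and 2.23 in the WT animals.

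Among 19 tested receptors and bridging proteins of efferocytosis other than the 10 genes, 1 was higher and 2 were lower in SB spleens (median log2 change 0.78). Over all genes 8.59% were higher and 9.75% lower, so these calls are near the 18.3% called among all genes. Mfge8, a bridging protein of phosphatidylserine that follicular dendritic cells also make, fell in SB spleens, with 66.5, 86.3 and 98.3 CPM in SB animals 1 to 3 and 1211, 1459 and 1665 CPM in WT animals 1 to 3 (log2 change -4.08, SE 0.258, adjusted p = 0.00148). Stab2, a scavenger receptor of sinus endothelium, rose, with 151, 148 and 176 CPM in the SB animals and 81.3, 77.4 and 69.2 CPM in the WT animals (1.09, SE 0.149, adjusted p = 0.00837). The third was Timd2, with at most 0.331 CPM in an SB animal and 1.59 to 2.43 CPM in WT animals (adjusted p = 0.0442). Gas6, the bridge to Mertk and Axl, had 8.51, 187 and 15.9 CPM in the SB animals and 55.7, 52.9 and 58.8 CPM in the WT animals (0.36, SE 1.09, adjusted p = 0.840). Between WT sections 8 of 19 passed, all higher in section B, where 6.47% of all genes were higher, and Gas6 was among them (0.61, SE 0.0849, adjusted p = 0.00575). Its piece difference was lower in SB than in WT spleens (-0.60, SE 0.126, adjusted p = 0.0475). The other pathway lists were mixed between WT sections, where 3.29% of all genes were lower in B. Of 17 complement partners of C1q 3 were higher and 1 was lower. Of 18 engulfment and digestion genes 1 was higher and 1 lower, and of 12 Spic regulators 1 was lower. Of 10 Vcam1 partners 0 passed, and of 5 macrophage growth factors and receptors 2 were higher.

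Calls among other genes of the pathways went in both directions. Among 12 factors that regulate or resemble Spic, 1 was higher and 3 were lower in SB spleens (median log2 change 0.04). Spib, the B cell relative of Spic, had 4.38, 9.20 and 6.49 CPM in SB animals 1 to 3 and 657, 744 and 748 CPM in WT animals 1 to 3 (-6.71, SE 0.358, adjusted p = 0.000932). Id3 (-3.24) and Irf4 (-3.72) also fell, and Zeb2, which maintains macrophage identity, rose (1.40, adjusted p = 0.0374). Of 17 complement partners of C1q, Cd93 (2.44) and Vsig4 (4.01) rose and Cd55 (-2.13) and C1s1 (-1.51) fell, with a median of 0.65. Vsig4, a complement receptor of tissue macrophages, had 3.08, 16.5 and 4.53 CPM in the SB animals and 0.0911, 0.921 and 0.510 CPM in the WT animals (adjusted p = 0.0445).

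Among 10 tested integrin partners and inducing cytokines of Vcam1, Itgb1 (0.91), which encodes a chain of VLA-4, and Tnfrsf1a (1.47) rose, while 3 genes fell, among them the lymphotoxin genes Lta (-5.36) and Ltb (-5.46), whose products induce Vcam1 (median -0.18). Of 18 genes of engulfment signalling and corpse digestion, Anxa1 rose (0.98) and Rubcn fell (-2.16), with a median of 0.40, and of 5 macrophage growth factors and receptors 0 passed (median 0.91). All of these changes are log2 changes of SB over WT, called at an adjusted p under 0.05 by edgeR, beside the 18.3% of all genes called. The calls among complement partners were near that share, and those among engulfment and growth factor genes were under it.

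Markers of other cells were read in the same genotype fit, in which 8.59% of all genes were higher and 9.75% lower in SB. The marginal zone macrophage markers summed to 27.7, 1720 and 52.1 CPM in SB animals 1 to 3 and 162 to 182 CPM in WT animals. Siglec1 alone made up 1409 CPM of the sum in SB animal 2, and the median log2 level of the 6 markers over the WT mean was -3.14, 0.35 and -2.37 in SB animals 1 to 3. None of the 6 was at 0 in all SB libraries, and Cd209a (-4.29), which is in the dendritic cell list as well, and Cd209d (-4.13) fell. The other 4 did not pass: Siglec1 (4.18) and Cd209b (3.26) had positive changes, and Marco (-0.402) and Colec12 (-0.763) negative ones. The erythroid markers summed to 2861, 36250 and 3719 CPM in SB animals 1 to 3 and 20940 to 44690 CPM in WT animals. For 8 erythroid genes the median log2 level over the WT mean was 0.31, 2.81 and 1.87, and Rhag (3.31), Epor (2.51) and Tfrc (2.16) rose. The monocyte markers summed to 247, 1652 and 551 CPM in the SB animals and 214 to 232 CPM in WT animals, with F13a1 (5.32) as the 1 called gene of 6. The neutrophil and promyelocyte markers summed to 147, 1827 and 953 CPM in the SB animals and 99.1 to 283 CPM in WT animals, with Ctsg (4.04) and Mpo (3.22) called. The part of each of these cell types in the levels of the 10 genes was not tested.

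The B cell markers fell in all 6 of 6 cases (median log2 change -6.73, among them Cr2 at -7.73, Pax5 at -6.74 and Ms4a1 at -7.08), and the T cell markers in 3 of 6 (Lef1 at -5.97, Tcf7 at -4.52 and Trac at -3.41). Dendritic cell markers fell in 2 of 6 cases, Cd209a and Clec9a (-1.83), and 1 of 4 eosinophil markers fell, Il5ra (-7.88). The other 3 eosinophil markers, Siglecf (1.87), Prg2 (1.31) and Ccr3 (1.14), had positive changes that did not pass, and the median was 1.22. Summed eosinophil markers were 129, 125 and 21.2 CPM in SB animals 1 to 3 and 63.0 to 71.8 CPM in WT animals. Of 7 endothelial markers Stab2 and Eng (1.36) rose and Pecam1 fell (-1.16). Of 7 stromal markers Pdgfrb (0.87) rose and Ccl19 (-5.31) and Cxcl13 (-4.17) fell, and of 6 spleen stroma identity markers Nkx2-3 fell (-1.18). The single calls in the monocyte, eosinophil and spleen stroma identity lists are near the 18.3% of all genes called. Clec4f and Cd207, used as markers of liver macrophages, summed to at most 0.331 CPM in an SB animal and to 4.34 to 5.85 CPM in WT animals. Only Cd207 passed the filter on low counts, and it fell (-5.25), so the call rests on that gene alone. The 5 pancreas markers, a check for neighbouring tissue, summed to 28.1, 63.9 and 7.40 CPM in SB animals 1 to 3 and 13.3 to 20.8 CPM in WT animals, with 0 of 1 tested gene passing.

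**Figure D5:**
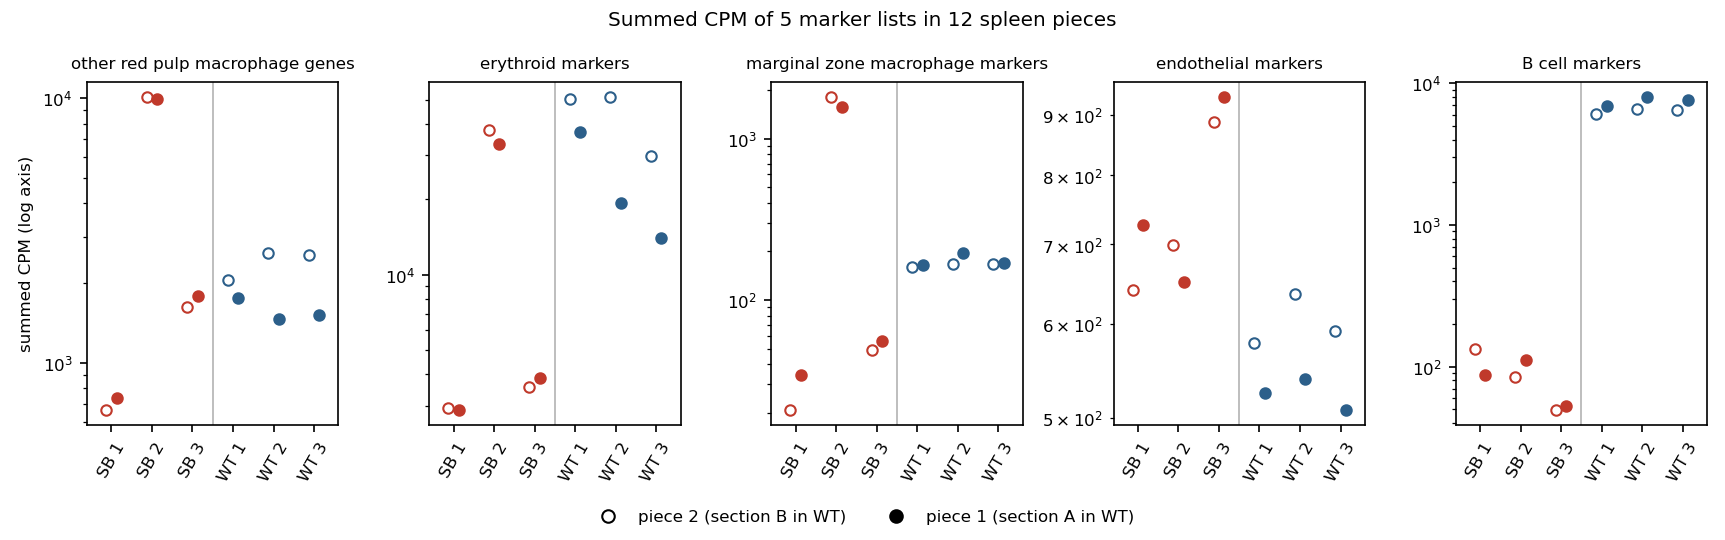
Summed CPM, on log axes, of 5 marker lists in the 12 spleen pieces, SB animals (red) left of WT animals (blue), with open circles for piece 2 (section B) and filled circles for piece 1 (section A). The other red pulp macrophage genes and the marginal zone macrophage markers peak in SB animal 2, the erythroid markers lie higher in section B than in section A of every WT spleen, and the B cell markers lie at 133 CPM or less in every SB piece.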

How the data were processed

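The authors deposited raw read counts per Ensembl gene, 1 column per spleen piece, from poly-A selected libraries made without strand information, per the labels' protocols. STAR 2.5.3a, limma, mm10 and GRCm38 are named in the submitters' processing notes without a role. Counting mode and annotation release: not given in the sources used here. Reads from overlapping genes on opposite strands cannot be told apart. Of the 32121 genes, 32026 were matched to GENCODE M21 (GRCm38) for symbols and exon lengths. The libraries held 14320833 to 22031026 counts, and intervals cover counting error only.

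The 10 genes, 20 further gene lists of 177 gene names, and the tests were chosen with earlier results of these data known. Counts were tested with edgeR 4.0.16 in R 4.3.3 (TMM, filterByExpr, robust quasi-likelihood fit, two-sided, Benjamini-Hochberg over all genes, adjusted p under 0.05), with SE from the F statistic. For genotype the 2 pieces of a spleen were summed, giving 3 animals per genotype. For pieces the 12 libraries were fitted with the animal as a block, because the titles tie both pieces to 1 animal. Differences among the 3 animals of a genotype were tested by F tests in the same libraries. SB and WT animals are not linked by any label, and litters are not stated. Both pieces of a spleen differed beyond counting noise (chi-square per degree of freedom 6.09 to 41.6), so each was kept as its own library. CPM and RPKM use TMM-scaled library sizes. Alternatives used DESeq2 1.42.0, limma 3.58.1 (voom), other scalings and filters, single pieces, and each animal left out. Named were the 10 genes, up to 4 called genes per list with the smallest adjusted p between genotypes, Csf1r, Hmox1, Slc40a1, Cd163, Gas6 and Mfge8, and the 5 genes most like Spic. A gene that the rule names is not reported here. Cela1, Siglec1 and the uncalled eosinophil, erythroid and marginal zone markers were named after their values were seen. The tests were tried on simulated data first. Promoter windows are RefSeq's (GRCm38.p6). The lists covered red pulp macrophage, Spic regulator, efferocytosis, engulfment, complement, Vcam1 partner and growth factor genes, and markers of marginal zone macrophages, monocytes, neutrophils, eosinophils, dendritic, erythroid, B, T, endothelial and stromal cells, spleen stroma, liver macrophages and pancreas.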

Additional observations from a re-analysis of the deposited data

Results flagged for a closer look

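For 5 of the 10 genes the signed difference, piece 2 minus piece 1, was not the same in both genotypes, by the edgeR test of the difference itself. The letters of WT sections and the numbers of SB pieces need not mean the same place. The sign of an SB difference may therefore not be comparable with that of a WT difference. With 1 animal left out, the number passing ran from 0 to 7. The piece difference in SB minus that in WT, on the log2 scale, was -1.01 for Vcam1, with per-animal means of -0.37 ± 0.32 in SB and 0.66 ± 0.318 in WT (SD, n = 3 each). It was -1.01 for Axl (-0.14 ± 0.194 in SB, 0.87 ± 0.317 in WT) and -0.961 for Mertk (-0.11 ± 0.20 in SB, 0.89 ± 0.389 in WT). It was -0.797 for C1qa (-0.093 ± 0.081 in SB, 0.72 ± 0.282 in WT) and -0.918 for C1qc (-0.097 ± 0.072 in SB, 0.83 ± 0.404 in WT). The C1q chains share a locus and followed each other closely, so they are not independent instances.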

How the results depend on the processing

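Of the 10 genes, 1 was called between genotypes, and 0 were called without the low-count filter, with limma-voom, from piece 2 alone, or with the edgeR 3 form of the test (added after seeing the data), where Mrc1 had an adjusted p of 0.0642, 0.102, 0.0806 and 0.0539. Among all genes DESeq2 called 5631, against 3178. Adgre1 turned to -0.311 with limma-voom between genotypes and to -0.037 with DESeq2 between pieces of all animals. Between pieces of all animals, 474 genes were called with the animal as a block, 0 with no replicate block and 1213 by DESeq2, which also called 1 of the 10 genes. The block changed no call among the 10. Fits to 1 genotype alone, chosen after seeing the data, called 5 of the 10 genes and 2949 of all genes between WT sections (9 and 1514 in the joint fit), and 0 of all genes between SB pieces (1 in the joint fit). No paired fit across genotypes was made because no label links the animals. DESeq2 size factors moved the median of all genes by -0.00574 on the log2 scale.

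Leaving out 1 animal in turn, the calls among the 10 genes ran from 0 to 2 between genotypes, 0 to 9 between WT sections, 0 to 7 for the difference of piece differences, and 7 to 10 among SB animals. Among all genes they ran from 554 to 6409 between genotypes, 0 to 413 between pieces of all animals, 0 to 709 between SB pieces, 0 to 1059 between WT sections, 0 to 544 for the difference, 7351 to 9140 among SB animals and 10 to 351 among WT animals. Calls over all lists ran from 16 to 77, against 44. The genotype change ran from -0.231 to 1.84 for Vcam1, -0.634 to 1.88 for Mertk, -0.6 to 1.88 for Axl, -0.679 to 3.48 for C1qa, -0.316 to 3.63 for C1qb, -0.514 to 3.42 for C1qc and -1.71 to 2.17 for Adgre1, each lowest value being without SB animal 2. The piece change of all animals ran from -0.00981 to 0.315 for Vcam1 and -0.122 to 0.283 for Adgre1, and that of SB animals from -0.0108 to 0.232 for Timd4. The cause was not tested. With 3 animals per genotype, an exact permutation test cannot go below p = 0.1.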

Other observations

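Some genes of the lists that were not named by rule are given here, chosen after their values were seen. Csf1, the growth factor that binds Csf1r, had 9.57, 660 and 21.3 CPM in SB animals 1 to 3 and 54.7, 56.9 and 59.1 CPM in WT animals 1 to 3, so it had the same order among the SB animals as Csf1r. Siglec1, the sialic acid receptor of metallophilic macrophages, had 8.51, 1409 and 23.6 CPM in SB animals 1 to 3 and 24.2, 24.6 and 32.3 CPM in WT animals 1 to 3. Marco, a scavenger receptor of marginal zone macrophages, had 3.36, 182 and 5.64 CPM in the SB animals and 82.4, 98.3 and 75.9 CPM in the WT animals. Siglec1 in SB animal 2 was thus far above every WT animal, while Marco in the same spleen was above them by a smaller factor.

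Lyve1, a hyaluronan receptor of lymphatic endothelium that some tissue macrophages also carry, had 1.14, 158 and 25.7 CPM in the SB animals and 0.455, 0.723 and 0.989 CPM in the WT animals. The transcription factor gene Maf, at 20.7, 583 and 39.6 CPM in SB animals 1 to 3, was highest in SB animal 2 as well, against 52.1 to 55.8 CPM in WT animals. Spi1, which encodes PU.1, had 221, 273 and 49.8 CPM in the SB animals and 142, 144 and 149 CPM in the WT animals, so SB animal 1, which had the lowest Spic, lay above every WT animal for Spi1.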
